A study of Mus musculus with 12 samples.

Results

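The T cell genes described here encode the CD3 chains of the T cell receptor, its coreceptors, the surface molecules that adhere, tune and costimulate, the kinases and adaptors close to the receptor, and the transcription factors, cytokine receptors and regulatory genes that T cells use. They were chosen by function as a list of 39 symbols, with earlier results of these data known. Each gene was read from the probe set annotated to its symbol alone, or from the brightest of these over all 12 arrays where there were several. Of the 22180 genes measured in this way, 36 were T cell genes of the list. Cd247, Lck and Tcf7 had no probe set annotated to their symbol alone and were not analysed here.

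A T cell recognises peptides on MHC molecules through its T cell receptor, which has no signalling tail of its own and signals through the CD3 chains. The coreceptors CD4 and CD8 bring a Src family kinase to the receptor, Zap70 then phosphorylates the adaptor Lat, and the signal runs on through calcium, diacylglycerol and Ras to transcription factors. In the spleen T cells lie in the white pulp beside the B cell follicles, and the endotoxin LPS is sensed through Toll-like receptor signalling, mainly by myeloid cells and B cells.

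Spleens came from 4 groups of 3 female C57BL/6 mice of 10 weeks. LPS challenged ficolin KO mice and LPS challenged WT mice were killed 6 h after an intraperitoneal dose of 10 mg/kg LPS, and naive ficolin KO mice and naive WT mice were untreated. Ficolin KO mice lack both ficolin-A and ficolin-B, the pattern recognition molecules of the lectin pathway of complement, and WT and ficolin KO mice were bred as separate homozygous lines. Each mouse gave 1 array of whole spleen RNA, so that fewer T cells and less RNA per T cell cannot be told apart.

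Fcna, the ficolin-A gene, had log2 intensities of 3.98 to 4.85 in the 6 ficolin KO mice against 7.92 to 9.38 in the 6 WT mice, and these ranges did not overlap. The deletion of Fcnb, a gene expressed mainly in bone marrow, was not checked here. Arrays of the same group correlated at 0.987 to 0.992 over genes, and array medians lay between 4.17 and 4.27. Genes that mark B cells, the other main lymphocyte of spleen, averaged 8.30 to 9.92 on the log2 scale on each array, well above these medians. All values are log2 intensities, so that a difference of 1 is a 2-fold change, and levels of different genes cannot be compared because each has its own probes.

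Most T cell genes were lower after LPS challenge in both genotypes. In ficolin KO mice 17 of 36 fell, 1 rose and 18 did not pass the test, which required a fold-change over 2 and an adjusted p under 0.05 in limma. The falls made up 47.2% of the T cell genes, while 4.41% of all genes fell and 4.22% rose. In WT mice 13 of 36 fell, 1 rose and 22 did not pass, a share of 36.1% that fell beside 4.94% of all genes that fell and 4.05% that rose. Among the 12324 genes whose mean over all arrays was at least the median of all values, 34 of them T cell genes, 7.49% fell in ficolin KO mice (16 T cell genes) and 8.33% in WT mice (13 T cell genes). The median log2 fold-change of the T cell genes was -0.76 in ficolin KO mice, where that of all genes was -0.01, and it was -0.85 in WT mice, where that of all genes was 0.01.

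The pattern held without the fold criterion. In ficolin KO mice 23 T cell genes were lower and 4 higher at an adjusted p under 0.05, beside 14.9% of all genes lower and 12.9% higher. In WT mice 24 were lower and 2 higher, beside 16.7% of all genes lower and 13.4% higher. All 3 LPS challenged arrays lay below all 3 naive arrays for 27 T cell genes in ficolin KO mice (20.9% of all genes) and for 26 in WT mice (21.3% of all genes). They lay above the naive arrays for 4 T cell genes in ficolin KO mice (18.8% of all genes) and for 3 in WT mice (19.4% of all genes). Averaged over the 36 genes, an array of LPS challenged ficolin KO mice had 6.12 to 6.26, one of LPS challenged WT mice 6.12 to 6.25, one of naive ficolin KO mice 6.79 to 6.95 and one of naive WT mice 6.82 to 7.0, and no array stood apart from its group.

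**Figure D1:**
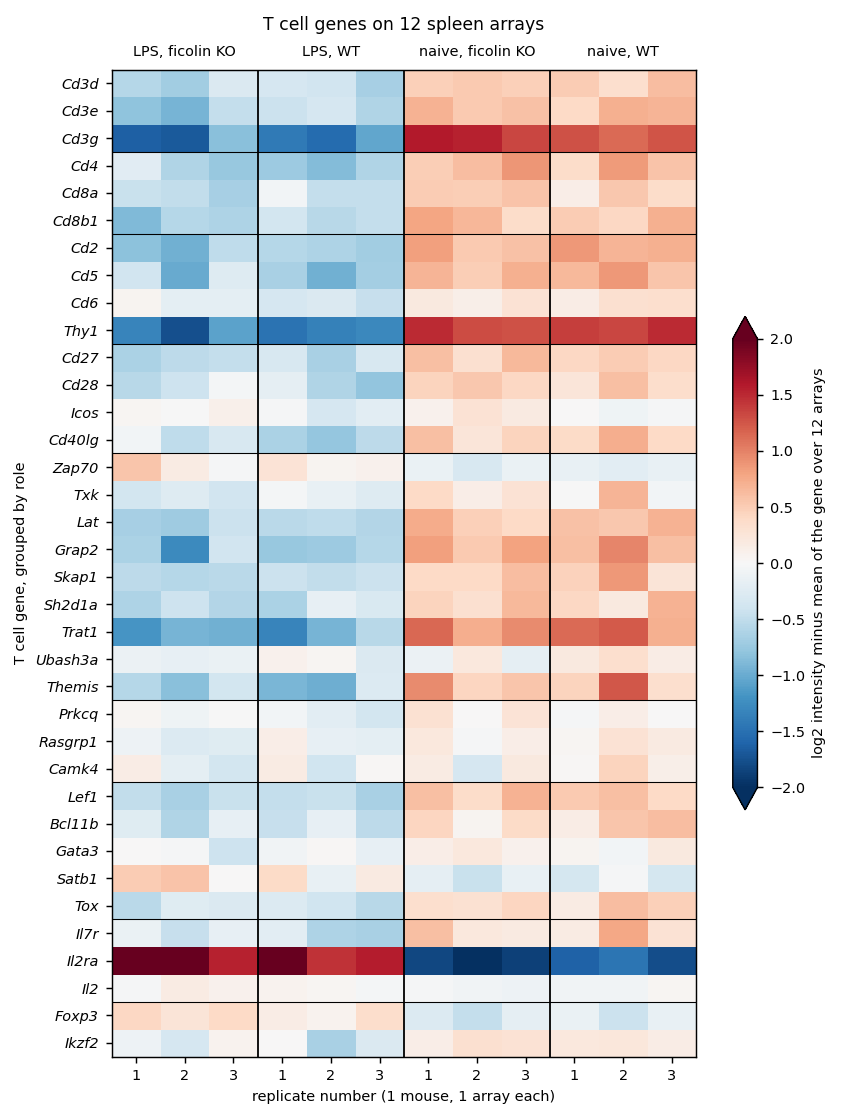
Log2 intensity of each of 36 T cell genes (rows, grouped by role) on each of 12 spleen arrays (columns, 1 mouse each), minus the mean of the gene over all arrays; the colour scale ends at 2 in either direction. Most rows are blue on the 6 LPS challenged arrays and red on the 6 naive arrays. Il2ra is the reverse, Foxp3, Zap70 and Satb1 tend the same way as Il2ra more weakly, and Icos, Ubash3a, Camk4 and Il2 have little contrast.

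The genes of the CD3 complex, which carries the signal of the T cell receptor into the cell, were lower on every LPS challenged array than on any naive array, and Cd3g had the steepest fall of the 36 genes in ficolin KO mice. Cd3g had log2 intensities of 5.84, 5.79 and 6.63 in LPS challenged ficolin KO mice against 9.05, 9.01 and 8.81 in naive ficolin KO mice, and of 6.06, 5.93 and 6.43 in LPS challenged WT mice against 8.75, 8.60 and 8.73 in naive WT mice. The 2 treatments were more than 2 units apart on this scale in each genotype, with replicate 3 of the LPS challenged ficolin KO mice the highest of the LPS challenged arrays. The log2 fold-change was -2.87 ± 0.19 in ficolin KO mice (SE, limma adjusted p = 3.24e-08) and -2.55 ± 0.19 in WT mice (adjusted p = 1.00e-07).

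Cd3e, the chain with which both other CD3 chains pair, had 8.29, 8.17 and 8.63 in LPS challenged ficolin KO mice against 9.79, 9.62 and 9.68 in naive ficolin KO mice, and 8.67, 8.76 and 8.50 in LPS challenged WT mice against 9.50, 9.81 and 9.78 in naive WT mice. It fell in both genotypes, with log2 fold-changes of -1.33 ± 0.14 in ficolin KO mice (adjusted p = 2.61e-06) and -1.05 ± 0.14 in WT mice (adjusted p = 2.63e-05), and the treatments did not overlap. Cd3d had 5.25, 5.12 and 5.53 in LPS challenged ficolin KO mice against 6.30, 6.34 and 6.29 in naive ficolin KO mice, and 5.49, 5.43 and 5.15 in LPS challenged WT mice against 6.33, 6.16 and 6.44 in naive WT mice. Its log2 fold-change was -1.01 ± 0.13 in ficolin KO mice (adjusted p = 2.98e-05), a fall at the border of the fold criterion, and -0.95 ± 0.13 in WT mice (adjusted p = 5.00e-05), just short of it.

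The responses of the CD3 genes were thus unequal. On the same array the log2 value of Cd3g minus that of Cd3e was -2.45 to -2.0 in LPS challenged ficolin KO mice against -0.87 to -0.61 in naive ficolin KO mice, and -2.83 to -2.07 in LPS challenged WT mice against -1.21 to -0.75 in naive WT mice. The difference moved by -1.54 in ficolin KO mice and by -1.5 in WT mice with LPS. This pair was picked after the values had been seen, so no test is given.

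Cd3g, Cd3d and Cd3e are neighbours in the mouse annotation with no other gene between them. RefSeq (build GRCm38.p6) gave a promoter window for 26 of the 39 listed genes, and the upstream bases of Cd3g and Cd3d are shown because these adjacent genes differed most within the complex. Windows were searched on both strands for the ETS letters GGAAGT, the STAT letters TTCNNNGAA, the RUNX letters TGTGGT, the TCF/LEF letters CTTTGA and the NF-kB consensus, and capitals mark every match. The Cd3g window holds the 250 bases before the start on the minus strand, at chr9:44980432-44980681, and the Cd3d window the first 233 of these bases on the plus strand, at chr9:44981536-44981768.
Cd3g: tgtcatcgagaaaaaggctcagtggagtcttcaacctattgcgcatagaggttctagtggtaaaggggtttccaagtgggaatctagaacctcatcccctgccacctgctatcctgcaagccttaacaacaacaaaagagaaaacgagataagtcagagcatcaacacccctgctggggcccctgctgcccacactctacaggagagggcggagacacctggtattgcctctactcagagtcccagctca
Cd3d: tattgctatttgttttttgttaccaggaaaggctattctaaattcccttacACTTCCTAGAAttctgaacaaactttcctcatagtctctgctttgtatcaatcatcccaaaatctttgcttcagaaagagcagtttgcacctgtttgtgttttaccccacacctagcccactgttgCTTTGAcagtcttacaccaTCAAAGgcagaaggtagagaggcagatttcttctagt
The Cd3g window held none of the 5 motifs. The Cd3d window held an ETS match that begins 199 bases before the start and overlaps a STAT match that begins at 197 bases, and TCF/LEF matches at 73 and 54 bases. Over the listed genes, 13 of 26 had an ETS match in 16 of their 40 windows, while 19.7% of all 32851 windows held one. STAT letters stood in 4 of the 40 windows, from 4 genes (7.02% of all windows). RUNX letters stood in 4 of the 40, from 4 genes (14.0% of all windows), and TCF/LEF letters in 7, from 7 genes (13.8% of all windows). A match is a description of the letters and no evidence that a factor binds.

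All 3 coreceptor genes fell in ficolin KO mice, and 2 of 3 fell in WT mice. Cd4, the coreceptor for MHC class II, had 6.97, 6.59 and 6.44 in LPS challenged ficolin KO mice against 7.68, 7.81 and 8.07 in naive ficolin KO mice, and 6.47, 6.33 and 6.59 in LPS challenged WT mice against 7.56, 8.05 and 7.77 in naive WT mice. Every LPS challenged array was lower than every naive one, and the log2 fold-change was -1.19 ± 0.16 in ficolin KO mice (adjusted p = 4.16e-05) and -1.33 ± 0.16 in WT mice (adjusted p = 1.30e-05).

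Cd8a and Cd8b1, adjacent genes for both chains of the coreceptor for MHC class I, were also lower on every LPS challenged array. Cd8a had 7.33, 7.28 and 7.11 in LPS challenged ficolin KO mice against 8.28, 8.27 and 8.35 in naive ficolin KO mice, and 7.72, 7.29 and 7.30 in LPS challenged WT mice against 7.90, 8.31 and 8.14 in naive WT mice. In WT mice the highest LPS challenged array and the lowest naive array, both replicate 1, lay close together. The log2 fold-change of Cd8a was -1.06 ± 0.14 in ficolin KO mice (adjusted p = 3.01e-05), and in WT mice it was -0.68 ± 0.14 (adjusted p = 0.00149), short of the fold criterion. The difference between these responses was -0.38 (95% interval -0.80 to 0.04, limma adjusted p = 0.998). Cd8b1 had 7.75, 8.06 and 8.02 in LPS challenged ficolin KO mice against 9.42, 9.30 and 9.0 in naive ficolin KO mice, and 8.26, 8.07 and 8.15 in LPS challenged WT mice against 9.14, 9.05 and 9.34 in naive WT mice. It fell in both genotypes, by 1.30 on the log2 scale in ficolin KO mice (adjusted p = 3.07e-06) and by 1.02 in WT mice (adjusted p = 3.33e-05).

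**Figure D2:**
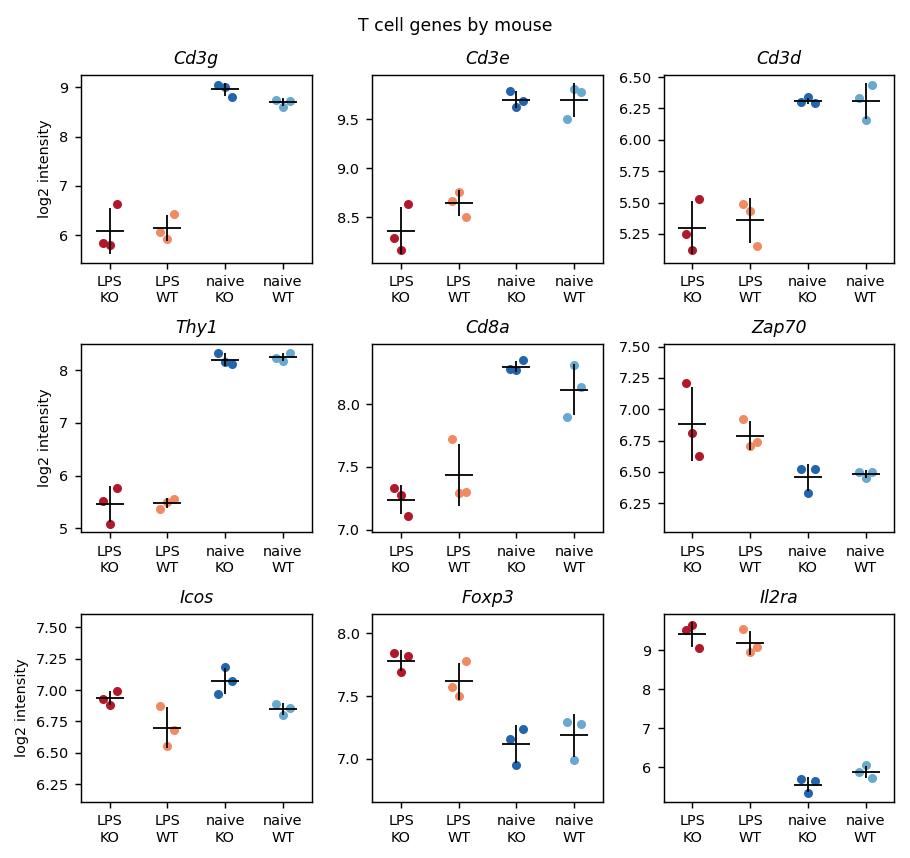
Log2 intensity (vertical axis, a range of its own in each panel) of 9 T cell genes in single mice; each point is 1 mouse, horizontal lines are group means and vertical lines are SD, n = 3 in each group. Cd3g, Thy1 and Il2ra show the widest gaps between LPS challenged and naive mice, and the ranges of Icos overlap.

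Of the surface molecules that adhere to or tune the T cell, 3 of 4 fell in each genotype. Thy1, a glycolipid-anchored protein that marks T cells in the mouse, had 5.52, 5.09 and 5.77 in LPS challenged ficolin KO mice against 8.33, 8.15 and 8.11 in naive ficolin KO mice, and 5.37, 5.50 and 5.55 in LPS challenged WT mice against 8.23, 8.18 and 8.33 in naive WT mice. Its log2 fold-change of -2.74 ± 0.15 in ficolin KO mice (adjusted p = 4.55e-09) and of -2.77 ± 0.15 in WT mice (adjusted p = 3.46e-09) was the steepest fall of the 36 genes in WT mice, with no overlap between treatments. Cd2, an adhesion receptor, fell by 1.40 in ficolin KO mice and by 1.38 in WT mice on the log2 scale. Cd5, a receptor that dampens T cell receptor signals, fell by 1.18 in ficolin KO mice and by 1.45 in WT mice.

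Cd6, a relative of Cd5, had the smallest response of these molecules. It had 5.94, 5.69 and 5.68 in LPS challenged ficolin KO mice against 6.08, 6.00 and 6.17 in naive ficolin KO mice, and 5.54, 5.59 and 5.41 in LPS challenged WT mice against 6.02, 6.20 and 6.22 in naive WT mice. All LPS challenged arrays were lower than the naive arrays of their genotype, but narrowly so in ficolin KO mice. The log2 fold-change was -0.31 ± 0.12 in ficolin KO mice (adjusted p = 0.0582) and -0.63 ± 0.12 in WT mice (adjusted p = 5.69e-04), and neither reached the fold criterion.

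Among the 4 costimulatory genes, 1 fell in each genotype, and it was not the same gene. Cd27, a receptor of the TNF receptor family, had 5.13, 5.24 and 5.29 in LPS challenged ficolin KO mice against 6.37, 6.09 and 6.42 in naive ficolin KO mice, and 5.45, 5.11 and 5.45 in LPS challenged WT mice against 6.18, 6.27 and 6.18 in naive WT mice. The treatments did not overlap in either genotype, and the log2 fold-change was -1.07 ± 0.13 in ficolin KO mice (adjusted p = 1.03e-05) and -0.87 ± 0.13 in WT mice (adjusted p = 7.24e-05), short of the fold criterion. Cd40lg, the ligand with which helper T cells license B cells, had 4.83, 4.37 and 4.56 in LPS challenged ficolin KO mice against 5.48, 5.12 and 5.32 in naive ficolin KO mice, and 4.25, 4.11 and 4.36 in LPS challenged WT mice against 5.27, 5.61 and 5.28 in naive WT mice. Its log2 fold-change was -1.15 ± 0.15 in WT mice (adjusted p = 2.12e-05), while that in ficolin KO mice was -0.72 ± 0.15 (adjusted p = 0.00143), short of the fold criterion. The ficolin KO response minus the WT response was -0.20 for Cd27 (95% interval -0.58 to 0.18) and 0.43 for Cd40lg (-0.02 to 0.87), and neither difference passed the test (adjusted p = 0.998 for each).

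Cd28 and Icos, related costimulatory receptors, did not reach the fold criterion. Cd28 had a log2 fold-change of -0.80 in ficolin KO mice (adjusted p = 0.00171) and of -0.93 in WT mice (adjusted p = 4.92e-04). Icos, which is induced on activated T cells, had 6.93, 6.88 and 6.99 in LPS challenged ficolin KO mice against 6.97, 7.18 and 7.07 in naive ficolin KO mice, and 6.87, 6.55 and 6.68 in LPS challenged WT mice against 6.89, 6.80 and 6.86 in naive WT mice. These ranges overlapped in both genotypes, and the log2 fold-change of Icos was -0.14 (95% interval -0.38 to 0.10) in ficolin KO mice and -0.15 (-0.39 to 0.09) in WT mice.

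Of the kinases and adaptors near the receptor, 6 of 9 fell in ficolin KO mice and 4 of 9 in WT mice, and 1 kinase was higher. Trat1, an adaptor that binds the receptor complex, had 3.49, 3.74 and 3.72 in LPS challenged ficolin KO mice against 5.83, 5.40 and 5.62 in naive ficolin KO mice, and 3.35, 3.74 and 4.12 in LPS challenged WT mice against 5.81, 5.90 and 5.38 in naive WT mice. Its log2 fold-change was -1.97 ± 0.19 in ficolin KO mice (adjusted p = 1.17e-06) and -1.96 ± 0.19 in WT mice (adjusted p = 1.18e-06). All 6 LPS challenged arrays lay below the median of every array, so these estimates may understate the fall. The adaptor Grap2, which joins Lat to further adaptors, fell by 1.48 in ficolin KO mice and by 1.41 in WT mice. Lat itself, the scaffold of the signalling complex, fell by 1.14 in ficolin KO mice and by 1.15 in WT mice, and Themis, an adaptor needed in thymocyte development, fell by 1.23 in ficolin KO mice and by 1.40 in WT mice. The Themis call was lost in ficolin KO mice with the level of exocrine pancreas genes as a covariate (-0.71, adjusted p = 0.168), and in WT mice with ordinary least squares (adjusted p = 0.0798).

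Skap1 and Sh2d1a passed the fold criterion in ficolin KO mice and not in WT mice. Skap1, an adaptor that couples the receptor to integrins, had 5.07, 5.01 and 5.04 in LPS challenged ficolin KO mice against 5.98, 5.98 and 6.21 in naive ficolin KO mice, and 5.15, 5.09 and 5.16 in LPS challenged WT mice against 6.04, 6.45 and 5.85 in naive WT mice. Its log2 fold-change was -1.02 ± 0.14 in ficolin KO mice (adjusted p = 4.14e-05) and -0.98 ± 0.14 in WT mice (adjusted p = 5.63e-05), on both sides of the border. Sh2d1a, the adaptor of the SLAM receptors, had 3.59, 3.78 and 3.61 in LPS challenged ficolin KO mice against 4.65, 4.52 and 4.85 in naive ficolin KO mice, and 3.57, 4.04 and 3.89 in LPS challenged WT mice against 4.61, 4.40 and 4.89 in naive WT mice. The log2 fold-change of Sh2d1a was -1.01 ± 0.15 in ficolin KO mice (adjusted p = 1.00e-04) and -0.80 ± 0.15 in WT mice (adjusted p = 7.80e-04). These estimates may again understate the fall, since its LPS challenged arrays lay below every array median. The treatments did not overlap for Skap1 or Sh2d1a.

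Zap70, the kinase that the phosphorylated CD3 chains recruit, went the other way. It had 7.21, 6.81 and 6.63 in LPS challenged ficolin KO mice against 6.52, 6.33 and 6.52 in naive ficolin KO mice, and 6.92, 6.71 and 6.74 in LPS challenged WT mice against 6.50, 6.45 and 6.50 in naive WT mice. All LPS challenged arrays were higher than the naive arrays, and the log2 fold-change was 0.43 ± 0.14 in ficolin KO mice (adjusted p = 0.0315) and 0.31 ± 0.14 in WT mice (adjusted p = 0.117), below the fold criterion in each. Txk, a Tec family kinase, had a log2 fold-change of -0.61 in ficolin KO mice (adjusted p = 0.0118) and of -0.36 in WT mice (adjusted p = 0.129). Ubash3a, which restrains receptor signals, had one of -0.11 in ficolin KO mice (adjusted p = 0.611) and of -0.28 in WT mice (adjusted p = 0.14).

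The genes of second messenger signalling, further from the receptor, were near their naive level and none of 3 passed the test. Rasgrp1, which activates Ras when it binds diacylglycerol, had 8.0, 7.82 and 7.86 in LPS challenged ficolin KO mice against 8.31, 8.08 and 8.23 in naive ficolin KO mice, and 8.24, 7.94 and 7.91 in LPS challenged WT mice against 8.14, 8.39 and 8.28 in naive WT mice. Its log2 fold-change was -0.31 (95% interval -0.58 to -0.05, adjusted p = 0.0773) in ficolin KO mice and -0.24 (-0.51 to 0.03, adjusted p = 0.173) in WT mice, and the treatments overlapped in WT mice. The calcium-dependent kinase Camk4 had -0.14 (-0.54 to 0.26) in ficolin KO mice and -0.26 (-0.66 to 0.14) in WT mice. For Prkcq, the protein kinase C of the immune synapse, the change was -0.21 (-0.47 to 0.05) in ficolin KO mice and -0.25 (-0.51 to 0.01) in WT mice.

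Among the transcription factors 1 of 5 fell in both genotypes. Lef1, which with its relative Tcf7 maintains naive T cells, had 7.80, 7.64 and 7.85 in LPS challenged ficolin KO mice against 8.89, 8.66 and 8.99 in naive ficolin KO mice, and 7.81, 7.85 and 7.64 in LPS challenged WT mice against 8.81, 8.89 and 8.69 in naive WT mice. The treatments were clearly apart, with log2 fold-changes of -1.08 ± 0.12 in ficolin KO mice (adjusted p = 5.75e-06) and -1.03 ± 0.12 in WT mice (adjusted p = 9.13e-06). Bcl11b, a factor of T cell commitment, was lower by less, with -0.62 in ficolin KO mice (adjusted p = 0.00947) and -0.82 in WT mice (adjusted p = 0.00114). Tox, which acts in the development of CD4 T cells, had -0.71 in ficolin KO mice (adjusted p = 7.95e-04) and -0.83 in WT mice (adjusted p = 2.12e-04).

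Gata3 and Satb1 differed from these factors. Gata3, the factor of type 2 helper T cells, had a log2 fold-change of -0.29 in ficolin KO mice (adjusted p = 0.112) and of -0.14 in WT mice (adjusted p = 0.48). It had 2 probe sets, and with these averaged its sign in WT mice was reversed. Satb1, a chromatin organiser, had 9.12, 9.18 and 8.63 in LPS challenged ficolin KO mice against 8.44, 8.17 and 8.46 in naive ficolin KO mice, and 9.0, 8.47 and 8.80 in LPS challenged WT mice against 8.27, 8.59 and 8.26 in naive WT mice. Its values were higher after LPS, without overlap in ficolin KO mice and with 1 overlapping pair of arrays in WT mice. The log2 fold-change of Satb1 was 0.62 ± 0.17 in ficolin KO mice (adjusted p = 0.0123) and 0.38 ± 0.17 in WT mice (adjusted p = 0.112), and neither reached the fold criterion.

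**Figure D3:**
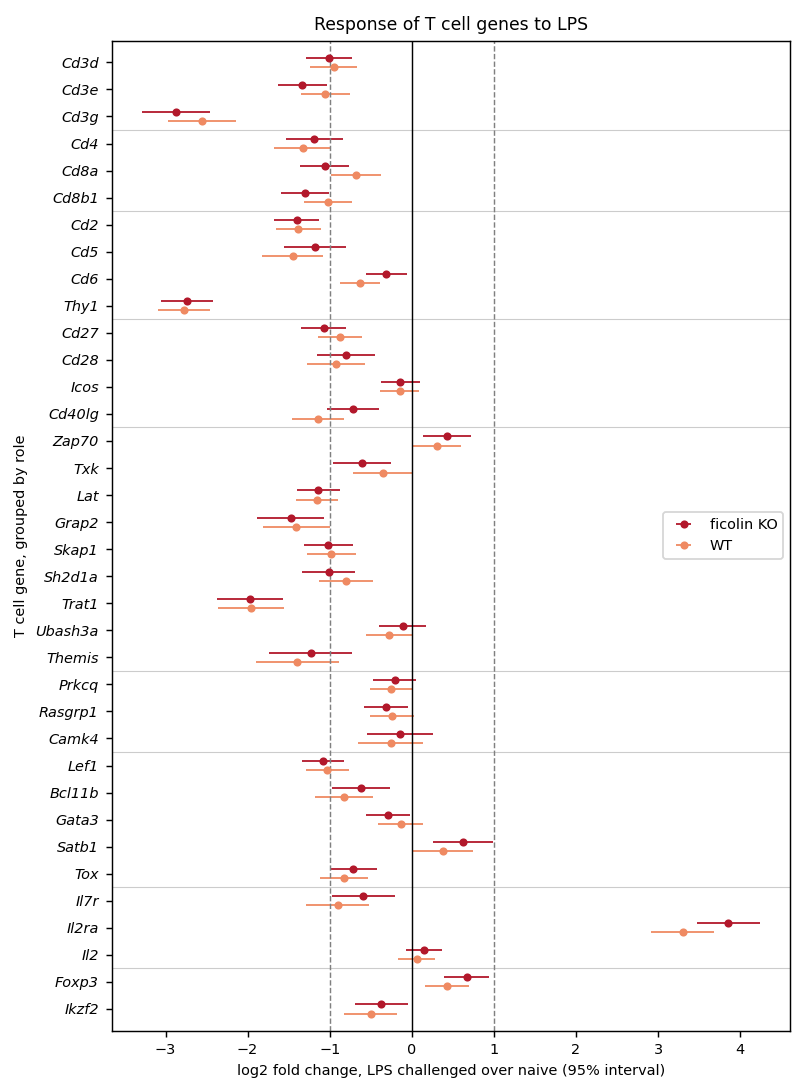
Log2 fold-change of LPS challenged over naive mice (horizontal axis) of 36 T cell genes in each genotype; points are limma estimates from 3 arrays in each group, bars are 95% intervals and dashed lines mark the 2-fold criterion. Cd3g, Thy1 and Trat1 lie furthest to the left in both genotypes, and Il2ra alone lies to the right of the upper dashed line.

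The receptor genes for T cell growth cytokines moved in opposite directions. Il2ra, the alpha chain that gives the IL-2 receptor its high affinity, rose in both genotypes and was the only T cell gene of the list to do so by the criteria. It had 9.52, 9.66 and 9.06 in LPS challenged ficolin KO mice against 5.69, 5.34 and 5.65 in naive ficolin KO mice, and 9.54, 8.96 and 9.08 in LPS challenged WT mice against 5.89, 6.05 and 5.74 in naive WT mice. The treatments were separated by a wide gap, and the log2 fold-change was 3.85 ± 0.18 in ficolin KO mice, or 14.5-fold (adjusted p = 1.04e-09), and 3.30 ± 0.18 in WT mice, or 9.85-fold (adjusted p = 3.71e-09). Il2ra is carried by activated and regulatory T cells and can also be induced on B cells and dendritic cells, and these sources cannot be told apart in whole spleen.

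The 250 bases before the start of Il2ra on the plus strand, at chr2:11642542-11642791 (RefSeq, GRCm38.p6), are shown because it was the single gene that rose. Of the 40 windows of the 26 listed genes that had one, its window alone matched the NF-kB consensus, which 3.90% of all windows did. Whether a match bears on the rise was not tested. Capitals mark 2 overlapping NF-kB matches, which begin 201 and 200 bases before the start, and an ETS match at 35 bases.
Il2ra: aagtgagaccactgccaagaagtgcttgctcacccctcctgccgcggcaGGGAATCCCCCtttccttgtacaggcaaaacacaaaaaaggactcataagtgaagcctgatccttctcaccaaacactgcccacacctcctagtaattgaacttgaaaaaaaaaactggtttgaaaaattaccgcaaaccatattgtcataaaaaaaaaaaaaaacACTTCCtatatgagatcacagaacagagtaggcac

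Il7r, the receptor chain for the survival cytokine of naive T cells, had 8.50, 8.17 and 8.47 in LPS challenged ficolin KO mice against 9.24, 8.85 and 8.82 in naive ficolin KO mice, and 8.43, 8.02 and 7.98 in LPS challenged WT mice against 8.80, 9.41 and 8.93 in naive WT mice. All LPS challenged arrays were lower than the naive arrays of their genotype, with log2 fold-changes of -0.59 ± 0.18 in ficolin KO mice (adjusted p = 0.0214) and -0.90 ± 0.18 in WT mice (adjusted p = 0.00108) that stayed short of the fold criterion. Il2 itself, the growth factor that activated T cells secrete, had 2.31 to 2.58 on all 12 arrays, below the median of every array. No response of Il2 was detectable on this array, with a log2 fold-change of 0.14 (95% interval -0.08 to 0.36) in ficolin KO mice and of 0.06 (-0.16 to 0.28) in WT mice.

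The genes of regulatory T cells were not lower together. Foxp3, the factor that defines regulatory T cells, had 7.84, 7.69 and 7.82 in LPS challenged ficolin KO mice against 7.16, 6.95 and 7.24 in naive ficolin KO mice, and 7.57, 7.50 and 7.78 in LPS challenged WT mice against 7.29, 6.99 and 7.28 in naive WT mice. Every LPS challenged array was higher than every naive array, and the log2 fold-change was 0.67 ± 0.13 in ficolin KO mice (adjusted p = 8.26e-04) and 0.43 ± 0.13 in WT mice (adjusted p = 0.0177), below the fold criterion in each. Ikzf2, a factor of thymus-derived regulatory T cells, had 5.37, 5.14 and 5.54 in LPS challenged ficolin KO mice against 5.61, 5.79 and 5.76 in naive ficolin KO mice, and 5.48, 4.83 and 5.19 in LPS challenged WT mice against 5.69, 5.70 and 5.62 in naive WT mice. It was lower on the LPS challenged arrays without overlap, with log2 fold-changes of -0.37 ± 0.15 in ficolin KO mice (adjusted p = 0.0898) and -0.50 ± 0.15 in WT mice (adjusted p = 0.0202).

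The responses of both genotypes were alike in direction. With each gene read from its brightest probe set, all 36 T cell genes had the same sign in ficolin KO and WT mice. With probe sets averaged, Camk4 and Gata3 differed in sign between genotypes. Across the 36 genes, which are not independent of each other, the 2 responses correlated with a Pearson r of 0.984 and a Spearman rho of 0.944. The genes that fell in both genotypes numbered 12 (3.69% of all genes fell in both), and Il2ra rose in both (3.55% of all genes). Cd3d, Cd8a, Cd27, Skap1 and Sh2d1a passed in ficolin KO mice alone and Cd40lg in WT mice alone, and 17 genes passed in neither. None of the 36 differed between the responses at an adjusted p under 0.05 in limma, where 0.00902% of all genes did. At an unadjusted p under 0.05 Il2ra was the single one, beside 3.53% of all genes, with a response larger by 0.55 in ficolin KO mice (95% interval 0.01 to 1.09, limma adjusted p = 0.998).

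Ficolin KO mice were also set against WT mice within each state, at a fold-change over 1.5 and an unadjusted p under 0.05. In the LPS challenged state none of the 36 T cell genes was called, beside 0.311% of all genes lower and 0.149% higher. At an unadjusted p under 0.05 with no fold criterion there were 2 (5.18% of all genes), Cd40lg and Cd6, and no limma adjusted p was below 0.93. Cd40lg had a log2 fold-change of ficolin KO over WT mice of 0.35 (95% interval 0.03 to 0.66). All 3 LPS challenged ficolin KO arrays lay above the WT arrays. The LPS challenged WT arrays of Cd40lg, at 4.11 to 4.36, lay near the array medians of 4.17 to 4.27. Cd6 had a log2 fold-change of 0.26 (0.01 to 0.50), likewise without overlap between genotypes. All arrays of LPS challenged ficolin KO mice lay below those of WT mice for 2 T cell genes (4.94% of all genes) and above them for 3 (5.95% of all genes).

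In the naive state none was called either, beside 0.0902% of all genes lower and 0.0947% higher, and none had an unadjusted p under 0.05 (2.85% of all genes). The gene nearest to that threshold was Icos, with a log2 fold-change of 0.22 for ficolin KO over WT mice (95% interval -0.02 to 0.46). Icos had a similar difference of 0.23 in the LPS challenged state (-0.01 to 0.47). The largest difference in the naive state was that of Il2ra, at -0.33 (-0.72 to 0.05). The arrays of naive ficolin KO mice lay below those of WT mice for 1 T cell gene (3.07% of all genes) and above them for 2 (3.21% of all genes).

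**Figure D4:**
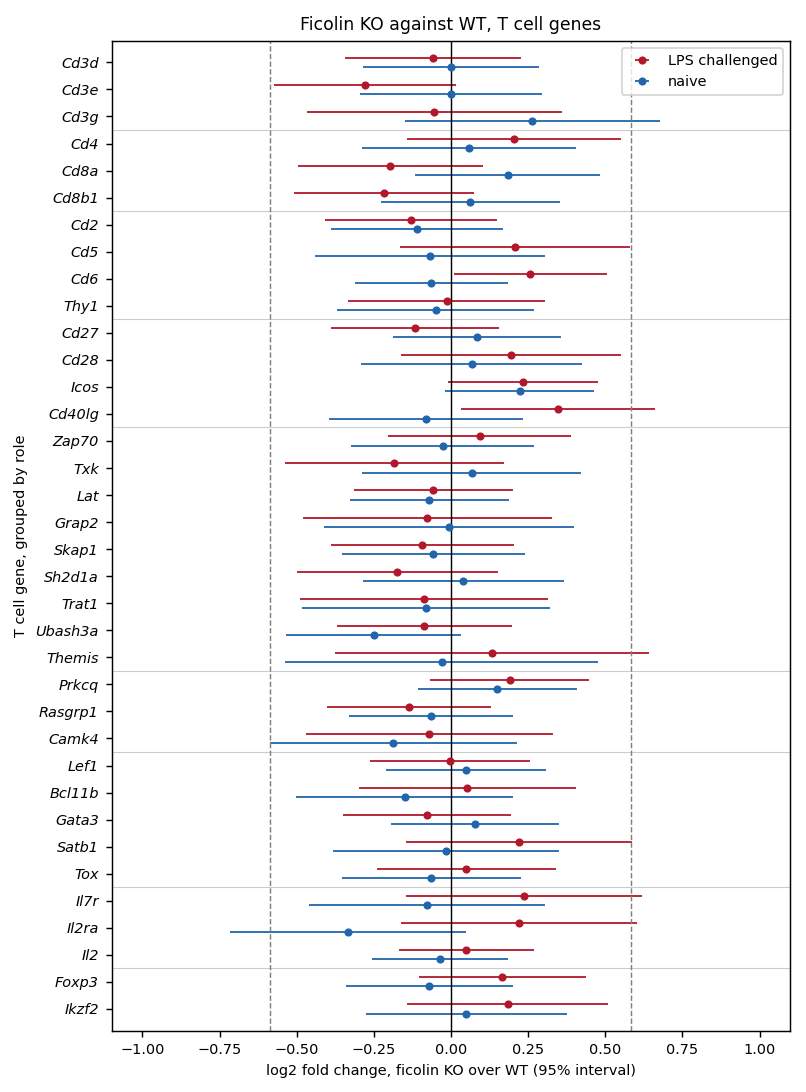
Log2 fold-change of ficolin KO over WT mice (horizontal axis) of 36 T cell genes in the LPS challenged and the naive state; points are limma estimates from 3 arrays in each group, bars are 95% intervals and dashed lines mark the 1.5-fold criterion. No point lies outside the dashed lines, and the point furthest from 0 is Cd40lg in the LPS challenged state, at 0.35.

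Genes that act with these in T cells were taken from further lists. Of 35 other genes of T cell receptor signalling, 9 fell in ficolin KO mice, 11 fell in WT mice and none rose. The largest falls were those of Dgka, a kinase that removes diacylglycerol, which fell by 2.04 in ficolin KO mice and by 2.22 in WT mice on the log2 scale, and of Arhgap15, a regulator of Rac, which fell by 1.67 in ficolin KO mice and by 2.12 in WT mice. Ptprc, the CD45 phosphatase found on all white blood cells, had -0.93 in ficolin KO mice and fell by 1.05 in WT mice. Ptprcap, which binds CD45, fell by 1.04 in ficolin KO mice and had -0.96 in WT mice.

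Of 16 genes that T cell activation induces, 8 rose and 8 did not pass in ficolin KO mice, 9 rose and 7 did not pass in WT mice, and none fell by the criteria. Cd69, an early marker that keeps activated lymphocytes in tissue, had a log2 fold-change of 2.80 ± 0.15 in ficolin KO mice and of 3.00 ± 0.15 in WT mice, and Tnfrsf9, the costimulatory receptor 4-1BB, rose by 2.77 in ficolin KO mice and by 2.66 in WT mice. The transcription factor Bhlhe40 rose by 1.19 in ficolin KO mice and by 1.10 in WT mice, and the immediate early gene Egr1 had 0.98 in ficolin KO mice and rose by 1.55 in WT mice. Egr3, a relative of Egr1, was lower on every LPS challenged array than on any naive array, with a log2 fold-change of -0.48 in ficolin KO mice (adjusted p = 0.0081) and of -0.49 in WT mice (adjusted p = 0.0068), short of the fold criterion. Most of these genes are also induced in B cells and myeloid cells, and their source was not tested.

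Of 18 genes of helper and effector lineages 5 rose and 1 fell in ficolin KO mice, and 6 rose and 1 fell in WT mice. Ifng, the cytokine of type 1 helper T cells and NK cells, had a log2 fold-change of 5.23 ± 0.25 in ficolin KO mice and of 5.11 ± 0.25 in WT mice. These estimates may understate the rise, because all 6 naive arrays lay below the median of every array. Il17f rose by 2.52 in ficolin KO mice and by 2.33 in WT mice. Runx3, a factor of CD8 T cells, had 0.83 in ficolin KO mice and rose by 1.06 in WT mice, while Maf, a factor of several helper lineages, fell by 1.53 in ficolin KO mice and by 1.59 in WT mice. Among 7 inhibitory receptors Ctla4 rose by 1.27 in ficolin KO mice and by 1.11 in WT mice. Havcr2, the receptor Tim-3 that myeloid cells also carry, fell by 2.57 in ficolin KO mice and by 2.68 in WT mice. These estimates may understate its fall, because its 6 LPS challenged arrays lay below every array median.

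Of 11 genes of naive T cell homing and quiescence 1 rose and 3 fell in ficolin KO mice, and 1 rose and 2 fell in WT mice. Ccr7, the chemokine receptor for entry into T cell areas, rose by 1.71 in ficolin KO mice and by 1.82 in WT mice. Tmem71 fell by 2.15 in ficolin KO mice and by 2.28 in WT mice, and Dapl1 fell by 1.83 in ficolin KO mice and by 1.99 in WT mice. Klf2, which keeps T cells quiescent, fell by 1.32 in ficolin KO mice and had -0.92 in WT mice. No gene of these 5 lists was called for genotype, with or without LPS. Which spleen cells gave the changes in these lists, those of Ccr7 and Maf included, was not tested. None of the 7 T cell receptor constant region genes listed had a probe set annotated to its symbol alone, and they were not analysed here.

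**Figure D5:**
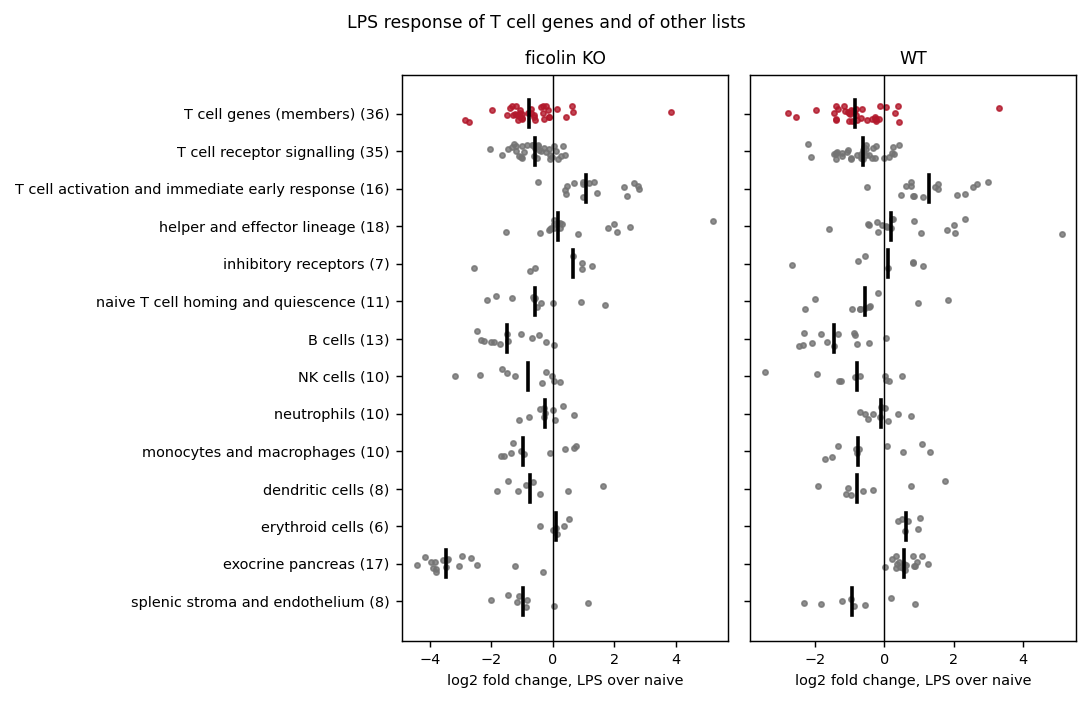
Log2 fold-change of LPS challenged over naive mice (horizontal axis) of the 36 T cell genes (top row) and of other gene lists (number of measured genes in brackets), in ficolin KO mice (left) and WT mice (right); each point is 1 gene and each bar the median of its list. The T cell genes have a median of -0.76 (ficolin KO) and -0.85 (WT), the activation genes lie mostly to the right of 0, and the exocrine pancreas genes lie to the left in ficolin KO mice and to the right in WT mice.

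Markers of other spleen cells moved with LPS as well. Of 13 B cell markers, 9 fell in ficolin KO mice and 8 fell in WT mice, and their summed linear intensity was 5099 to 5597 in LPS challenged ficolin KO mice, 4920 to 5661 in LPS challenged WT mice, 14021 to 16453 in naive ficolin KO mice and 14367 to 16326 in naive WT mice. Of 10 NK cell markers 5 fell in ficolin KO mice and 4 fell in WT mice, with a summed intensity of 628 to 871 in LPS challenged ficolin KO mice, 651 to 913 in LPS challenged WT mice, 1461 to 1848 in naive ficolin KO mice and 1597 to 1829 in naive WT mice. The 36 T cell genes summed to 4496 to 4747 in LPS challenged ficolin KO mice and 4137 to 4878 in LPS challenged WT mice. They summed to 6486 to 7311 in naive ficolin KO mice and 6363 to 7261 in naive WT mice. This sum includes Il2ra, Foxp3, Satb1 and Zap70, whose means were higher after LPS. The 3 CD3 genes alone summed to 378 to 541 in LPS challenged ficolin KO mice and 484 to 538 in LPS challenged WT mice. Their sums were 1347 to 1494 in naive ficolin KO mice and 1235 to 1391 in naive WT mice.

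Of 10 monocyte and macrophage markers, 5 fell in ficolin KO mice, and 3 fell and 2 rose in WT mice. Among 8 dendritic cell markers 3 fell and 1 rose in each genotype, of 8 markers of splenic stroma and endothelium 4 fell and 1 rose in ficolin KO mice and 3 fell in WT mice, of 10 neutrophil markers 1 fell in ficolin KO mice alone, and of 6 erythroid markers none passed. The erythroid markers varied widely between mice of a group. Their mean was 6.14 to 7.91 in LPS challenged ficolin KO mice and 7.12 to 7.99 in LPS challenged WT mice. It was 5.98 to 7.62 in naive ficolin KO mice and 6.08 to 8.10 in naive WT mice. The part of these other cells in the T cell values was not tested.

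Exocrine pancreas genes, which spleen itself should lack, moved with one of the responses. Of 17 such genes, 15 fell with LPS in ficolin KO mice and none passed in WT mice, and all 17 had a lower level in LPS challenged ficolin KO mice than in LPS challenged WT mice. Their summed linear intensity was 643 to 10380 in LPS challenged ficolin KO mice, 14396 to 51508 in LPS challenged WT mice, 16384 to 44409 in naive ficolin KO mice and 9951 to 33195 in naive WT mice. With the mean of these genes as a covariate in the fit, 12 T cell genes fell in ficolin KO mice in place of 17, and 13 in WT mice as without it, and none was called between genotypes. Besides Themis, the calls lost were those of Cd27, Lat, Skap1 and Sh2d1a, which stayed lower in ficolin KO mice by just under 2-fold, at -1.0 to -0.93. The covariate itself was 4.35 to 8.23 in LPS challenged ficolin KO mice and 8.92 to 10.43 in naive ficolin KO mice, without overlap. The fit therefore cannot tell the level of pancreas genes apart from the LPS response in ficolin KO mice.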

How the data were processed

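Gene expression in whole spleen was measured on Affymetrix Mouse Gene 2.0 ST arrays, 1 array for each of 12 mice, and the labels gave the group of each array. Per the study's methods, the authors applied quantile normalization and RMA summaries with the Qlucore Omics Explorer program. Values were deposited as log2 intensities of 41345 probe sets and run from 1.38 to 13.86. Quantile normalization gives all arrays the same distribution, so a change in total RNA per spleen cannot be seen, and RMA compresses changes of dim genes. The genome build of the probe sets is not given in the sources used here, and detection calls were not used here.

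Of the probe sets, 23521 carried 1 gene symbol, 1820 several and 16004 none, and only the first kind was used. The brightest probe set stood for each of 1082 genes with several, giving 22180 genes, and dim genes were kept. A linear model was fitted with limma 3.58.1 (lmFit, contrasts, eBayes) in R 4.3.3 to all 12 arrays with the 4 groups as terms, with 8 residual and 6.67 prior degrees of freedom, after the code was tested on simulated data. Benjamini-Hochberg adjustment of p-values covered all 22180 genes. The criteria are those of the study: a fold-change over 2 and an adjusted p under 0.05 between treatments, and a fold-change over 1.5 and an unadjusted p under 0.05 between genotypes. Differences between responses were called at an adjusted p under 0.05. Log2 fold-changes of the T cell genes had a median standard error of 0.14, and with 3 mice in a group the number of arrays limits the precision.

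The T cell genes, the 6 lists of other T cell genes and the 8 lists of cell markers were chosen with earlier results of these data known. All genes of the CD3, coreceptor, cytokine and regulatory T cell groups were named in full, and in the other groups those with the largest and smallest mean response and those whose call differed between genotypes or went against the rest; the remaining genes are named by their fold-changes alone, and of the other lists at most 4 called genes with the largest and smallest responses. Promoter windows came from RefSeq and were searched as letters. The alternatives were array weights, subtracted array medians, a filter on dim genes, averaged probe sets, a test of all probe sets, ordinary least squares, robust trended variances, separate fits of each 2 groups, a replicate block, the mean of the pancreas genes as a covariate, and leaving out each array.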

Additional observations from a re-analysis of the deposited data

How the results depend on the processing

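The counts of T cell genes called stayed within 1.5 times under every alternative that was run. Over the 10 alternatives other than leaving out arrays, 12 to 17 fell with LPS in ficolin KO mice (17 as reported) and 11 to 14 in WT mice (13 as reported), and leaving out each array in turn gave 15 to 17 in ficolin KO mice and 11 to 16 in WT mice. Il2ra was the single gene that rose in each of these fits, and no T cell gene was called between genotypes or between responses in any. Subtracting array medians gave 14 in ficolin KO mice and gave 11 in WT mice.

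The calls that moved belong mainly to genes close to a 2-fold change. In ficolin KO mice Cd3d lost the call without replicate 1 or 2 of the LPS challenged or replicate 2 of the naive mice (-1.0 to -0.92), Sh2d1a without replicate 1 or 3 of the LPS challenged or replicate 3 of the naive mice (-0.99 to -0.93), Skap1 without replicate 3 of the naive mice (-0.94), Cd5 without replicate 2 (-0.95) and Cd8a without replicate 3 (-1.0) of the LPS challenged mice. In WT mice Cd3e lost it without replicate 3 of the LPS challenged or 2 of the naive mice (-1.0 to -0.98), Cd8b1 without replicate 2 of the LPS challenged or 3 of the naive mice (-0.97 to -0.94) and Lef1 without replicate 3 of the LPS challenged or 2 of the naive mice (-0.98 to -0.97). Calls were gained there by Cd3d without replicate 1 of the LPS challenged or 2 of the naive mice, by Cd28 and Il7r without replicate 1 of the LPS challenged or 1 of the naive mice, and by Skap1 without replicate 1 or 3 of the naive mice, at -1.11 to -1.0. Small responses of 3 genes changed sign. They were Ubash3a in ficolin KO mice, with -0.19 to 0.0050 as each array was left out and the positive value without replicate 2 of the naive ficolin KO mice, Camk4 in ficolin KO mice, at 0.0083 with its probe sets averaged, and Gata3 in WT mice, at 0.13 with its probe sets averaged. Camk4 and Gata3 had 2 probe sets each, so in these 2 cases the dimmer probe set was higher after LPS. For Ubash3a the cause was not tested.

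The labels do not say what the replicate numbers mark. Over 18 pairs of arrays with the same number in different groups, the deviations from the group means correlated at -0.22 to 0.25 over genes. Their mean was -0.04, beside 0.02 for pairs with different numbers. Of the 18 pairs 2 exceeded 0.1, both between LPS challenged ficolin KO and WT mice (replicate 1 at 0.16 and replicate 3 at 0.25). Replicate 2 of these groups had -0.01. With the replicate number as a block, 17 T cell genes fell in ficolin KO mice, 13 fell in WT mice, and no call between genotypes or responses was gained. Array medians subtracted turned the split of all called genes in ficolin KO mice to 1013 higher and 885 lower, from 936 and 978, and no sign of a T cell gene with it.

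Sh2d1a, Trat1 and Il2 lay below every array median in both LPS challenged groups, so their levels there are bounds. The numbers of T cells were not measured, and 3 mice in a group leave differences between genotypes of about 0.3 on the log2 scale within the error.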
